A study of Mus musculus with 45 samples.

Results

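The comparison set day 10 against day 7 of a TLR culture, in which mouse spleen B cells were driven towards antibody secretion. Its members were the 3 day 10 and the 3 day 7 wild type libraries of that culture, 6 of the 45 libraries of the series, and the comparison ran across 19497 expressed genes of the 28196 in the deposited table. Both groups came from follicular-type (B2) B cells of the spleens of male C57BL/6 wild type mice, 7 weeks old by the sample labels (the protocol text, shared with other mouse lines of the series, gives a wider age range), isolated with a kit that removes CD43-bearing cells. Both had started on irradiated mouse L cells carrying CD40 ligand, with LPS, a TLR4 ligand, at 5 µg/mL. IL-4 was added at 50 ng/mL, as was IL-5, and at day 2 the cells were moved off the feeder layer. From day 4 the medium of both held amino acids, a lipid mixture, 10 ng/mL of IL-6 and 100 ng/mL of APRIL. The labels call the day 10 cells plasma cells and the day 7 cells plasmablasts. In a sister BCR culture, anti-IgM/IgG antibody fragments (12 µg/mL) took the place of LPS, and its day 10 and day 7 libraries, 3 each, are given where the cultures are compared. Freshly isolated day 0 B cells and day 4 cells complete the 21 wild type libraries that were fitted together. These cells are a culture model without bone marrow stroma, and since nothing in the labels ties a replicate to an animal or culture of its own, p-values here cover the spread among these libraries, which may be technical.

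A plasma cell is the end stage of a B cell that has turned over its transcription to antibody secretion. Blimp-1 (Prdm1), IRF4 and XBP1 drive that change, Blimp-1 shuts off the B cell factors PAX5, BACH2 and BCL6, and XBP1 enlarges the endoplasmic reticulum. Dividing plasmablasts leave the cell cycle on the way, and cells that underwent class switch recombination make IgG, IgE or IgA in place of IgM.

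Recovered reads per library numbered 28.07, 27.3 and 20.37 M (1 M is 1000000 reads) at day 10, against 22, 35.54 and 26.78 M at day 7. Outside immunoglobulin genes, 9.41, 11.2 and 8.41 M of them were left at day 10, against 13.8, 19.8 and 16.8 M at day 7, so counting error is larger for low genes at day 10. Transcripts of macrophages differed between the day 10 libraries. A set of 24 macrophage markers, listed further on, summed to 211, 3560 and 513 CPM (reads in each 1000000) in day 10 replicates 1, 2 and 3, against 90.9, 189 and 109 CPM at day 7. Day 10 replicate 1 therefore had the least of them, and the main results that touch such transcripts are given with that library alone as well. That fit takes its spread from the other groups and does not cover variation between day 10 replicates. Replicate 1 itself stood apart in base composition: the deviation of GC-rich less GC-poor genes (upper and lower quartile of 7335 genes) was 0.96, −0.05 and −0.47 at day 10, against −0.72, 0.26 and −0.37 at day 7 (log2). Its reads were also farthest from the others, with a chi-square per gene of 117.7 and 131.59 against replicates 2 and 3, which differed from each other by 44.17. The part of base composition in the results was not tested beyond the GC and length correction given at the end. Mitochondrially encoded genes took 1.26, 1.93 and 1.79% of the reads at day 10, against 3.6, 2.22 and 3.24% at day 7.

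Expression levels are log2 variance-stabilised values in which 3.04 stands for no reads, and differences are day 10 minus day 7 on that log2 scale, with the moderated standard error of limma. A gene was called at a Benjamini-Hochberg adjusted p below 0.05. In all, 1599 of 19497 genes were called (8.20%), of which 685 were higher at day 10 than at day 7 (3.51% of those tested) and 914 were lower (4.69%), and the median difference over the 19497 genes was 0.01. With day 10 replicate 1 as the only day 10 library, 312 were higher (1.60%) and 689 lower (3.53%), and 228 of the 685 and 474 of the 914 were among them. At an unadjusted p below 0.05 the counts were 2030 and 2290. Of the 8096 genes with a mean level of at least 8, from which the largest changes named below were taken, 340 were higher (4.20%) and 508 lower (6.27%). Of the calls 42.8% were higher, and 31% when each library was centred on its own median. Levels did not overlap between the groups, whatever the p, for 24.0% of genes, of which 11.4% lay above and 12.6% below. In a bulk sample, fewer cells of a type and less RNA per cell cannot be told apart.

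Immunoglobulin took a large share of the normalised reads of these libraries, and its make-up changed. Immunoglobulin genes took 66.5, 59.0 and 58.7% of the normalised reads at day 10, against 37.4, 44.3 and 37.3% at day 7, with the groups apart. The means were 61.4 ± 4.39% and 39.7 ± 4.05% (SD, n = 3 each), and the exact two-sided permutation p was 0.1, the smallest that 3 against 3 allows. Day 4 TLR cells had given 2.76, 2.56 and 1.91%.

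Transcripts of IgG rose and those of IgM fell. Ighg1, the IgG1 constant region on chromosome 12 (chr12:113325240-113330523, GRCm38), had levels of 23.46, 22.96 and 22.88 at day 10, against 20, 20.55 and 19.99 at day 7, a difference of 2.92 ± 0.59 (adjusted p = 0.00448, limma). All 3 day 10 libraries lay above all 3 day 7 libraries. Ighm, the IgM constant region (chr12:113418558-113422730), had 21.05, 20.32 and 20.53 at day 10, against 21.8, 22.15 and 21.73 at day 7, a difference of −1.26 ± 0.33 (adjusted p = 0.025). Read per kilobase of exon over the 8 heavy chain constant genes, Ighg1 held 73.4, 75.8 and 72.9% of the constant region signal at day 10, against 17, 19 and 17.6% at day 7. Ighm held 19, 16.7 and 19.7% at day 10, against 81.5, 79.2 and 80.8% at day 7. The major heavy chain was thus IgG1 in every day 10 library and IgM in every day 7 library.

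The minor IgG classes moved the same way. Ighg3 rose by 3.3 ± 0.4 (adjusted p = 6.9e-05) and held 5.79, 5.69 and 5.37% of the heavy chain signal at day 10, against 0.949, 1.18 and 1.01% at day 7. Ighg2b rose by 3.65 ± 0.39 (adjusted p = 3.44e-05) and held 1.57, 1.5 and 1.82% at day 10, against 0.27, 0.224 and 0.218% at day 7. Ighg2c, a near copy of Ighg2b whose reads could be split between them by the counting, rose by 3.07 ± 0.87 (adjusted p = 0.0374). IgE and IgA stayed minor: Ighe held 0.0421, 0.0331 and 0.0353% at day 10, against 0.15, 0.168 and 0.152% at day 7, without a call for its level (difference −1.22 ± 0.41, adjusted p = 0.0745). In the BCR culture Ighg1 held 88.3, 86.3 and 92.0% at day 10, against 46.6, 49.1 and 41.7% at day 7.

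Of the 12 constant region genes tested, 6 were called higher and 1 lower, beside 3.51% and 4.69% of all genes, and 3 were higher without day 7 replicate 1 or 3 or with day 10 replicate 1 alone. The light chains are carried by Igkc, which rose by 1.33 ± 0.36 (adjusted p = 0.0309) and kept 93.5, 92.7 and 93.4% of the light chain signal at day 10, against 91.0, 91.8 and 90.9% at day 7. Iglc1 rose by 1.23 ± 0.28 (adjusted p = 0.0113). Jchain, the linker of polymeric antibody, had 19.67, 19.98 and 20.48 at day 10, against 20.52, 19.94 and 20 at day 7, and no change was called (−0.11 ± 0.41, adjusted p = 0.908). Variable segments rose with the constant regions: 61 of 108 heavy chain segments and 37 of 99 kappa segments were called higher, and 0 and 1 lower, with median differences of 1.37 and 1.16. The effective number of heavy chain segments, the count of equally used segments that would give the same diversity, was 40.7, 37.9 and 37.7 at day 10, against 34.3, 37.6 and 37.3 at day 7. The most used one held 8.56, 8.99 and 8.57% of that class at day 10, against 9.49, 9.24 and 8.7% at day 7.

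**Figure D1:**
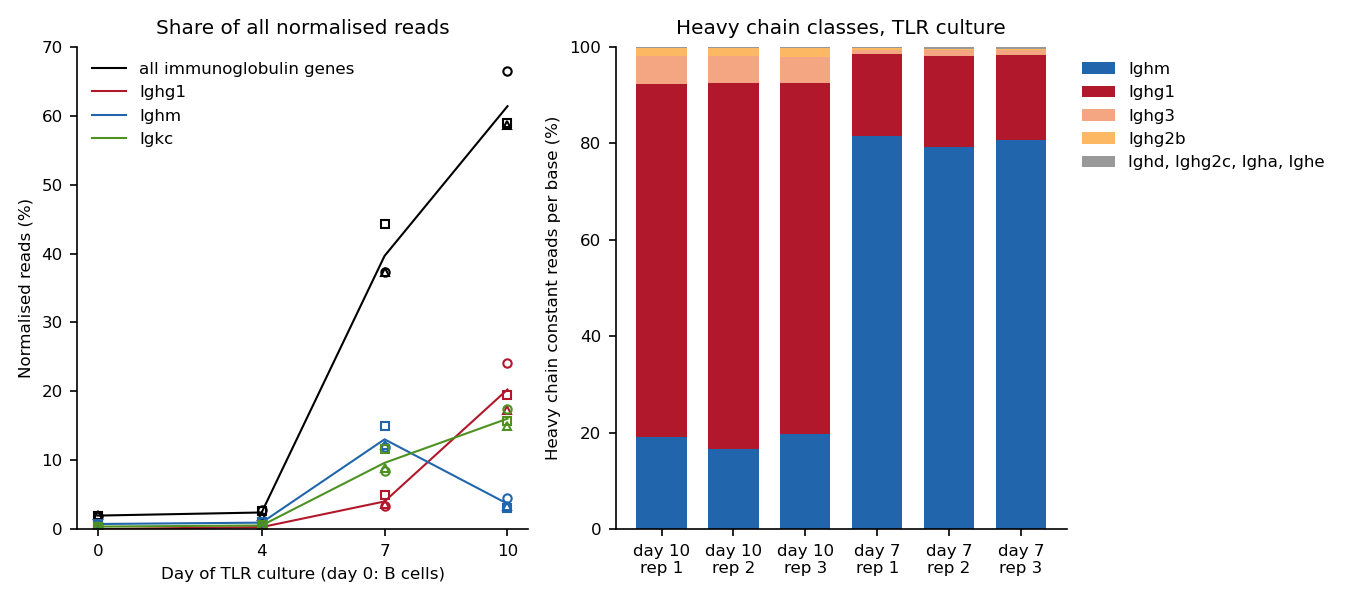
Immunoglobulin in the TLR culture. The left panel shows the percent of normalised reads by day of culture, with a symbol for each library and a line through the means, and the right panel stacks the percent of heavy chain constant region reads per base held by each class in each library. All immunoglobulin took 61.4% on average at day 10 and 39.7% at day 7, and Ighg1 averaged 74.0% at day 10 and 17.9% at day 7 of the heavy chain signal.

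No change was called in the 3 factors that drive a plasma cell, while factors of the B cell state fell. Prdm1 had 13.43, 13.46 and 13.51 at day 10, against 13.43, 13.04 and 13.09 at day 7 (difference 0.28 ± 0.31, adjusted p = 0.642). Xbp1 had 16.52, 16.53 and 16.75 at day 10, against 16.25, 16.2 and 16.17 at day 7 (0.39 ± 0.28, adjusted p = 0.447), and Irf4 had 15.37, 15.44 and 15.39 at day 10, against 15.45, 15.18 and 15.24 at day 7 (0.11 ± 0.3, adjusted p = 0.87). Between day 4 and day 7, a comparison that shares the day 7 libraries, Prdm1 rose by 3.4 ± 0.31 and Xbp1 by 2.23 ± 0.28 (adjusted p = 1.14e-07 and 5.87e-06).

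Bach2, a repressor that holds B cells back from secretion, had 8.99, 8.64 and 9.39 at day 10, against 10.71, 10.62 and 10.75 at day 7, a difference of −1.69 ± 0.2 (adjusted p = 6.64e-05). Bcl6, the germinal centre repressor, had 7.96, 7.77 and 7.95 at day 10, against 9.12, 9.37 and 9.31 at day 7 (−1.37 ± 0.14, adjusted p = 2.67e-05). Pax5, the B lineage factor (chr4:44524757-44710487), had 11.23, 10.61 and 11.25 at day 10, against 12.42, 12.07 and 12.15 at day 7 (−1.18 ± 0.2, adjusted p = 0.00119). All 3 were lower in every day 10 library than in any day 7 library. Mef2c, Ikzf3, Irf8, Ets1, Ebf1 and Foxo1 also fell, by 0.64 to 1.13. Of the 24 fate factors 0 were called higher and 9 lower, beside 3.51% and 4.69% of all genes, with a median difference of −0.49. The count of lower members was 3 when only the day 10 and day 7 libraries of this culture were fitted.

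Genes of mature B cell identity followed: 11 of 24 were called lower and 1 higher, beside 4.69% and 3.51% of all genes, with a median difference of −0.54. The 11 became 4 with only these 6 libraries fitted and 7 without day 7 replicate 1 or 3 or day 10 replicate 1 or 2. Fcer2a, the low-affinity IgE receptor CD23, had 9.67, 9.21 and 9.96 at day 10, against 11.72, 11.84 and 11.89 at day 7 (−2.2 ± 0.19, adjusted p = 2.71e-06). Cr2, complement receptor CD21, had 6.84, 6.61 and 7.87 at day 10, against 9.44, 8.74 and 9.64 at day 7 (−2.17 ± 0.38, adjusted p = 0.00174). Cd22, an inhibitor of the antigen receptor, fell by 1.45 ± 0.27 (adjusted p = 0.00277), and Ms4a1 (CD20) fell by 1.01 ± 0.3 (adjusted p = 0.0458). The signalling chains of the receptor were not called, with Cd79a at 0.65 ± 0.4 and Cd79b at −0.05 ± 0.23 (adjusted p = 0.37 and 0.935). Vpreb3, a gene of B cell precursors, was the member that rose, by 1.72 ± 0.35 (adjusted p = 0.00532). Of 10 MHC class II genes, which present antigen to T cells, 4 were called lower and 0 higher, beside 4.69% and 3.51% of all genes. H2-Aa, H2-Ob, H2-DMb1 and H2-DMb2 were the 4, lower by 0.75 to 0.84. None of the 4 was called with day 10 replicate 1 alone or when only these 6 libraries were fitted, and 1 was without day 7 replicate 2 or 3 or day 10 replicate 2. The invariant chain Cd74 had 17.34, 15.95 and 16 at day 10, against 15.13, 16.39 and 15.7 at day 7, with the groups overlapping.

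Among 25 genes of plasma cell identity 4 were called higher and 7 lower, beside 3.51% and 4.69% of all genes, and the median difference was −0.11. The 7 became 2 to 4 on leaving out any single library but day 10 replicate 3, 4 with only these 6 libraries and 2 with day 10 replicate 1 alone, where 1 was higher. Between day 4 and day 7, 22 of them had risen, against 17.7% of all genes. Sdc1, the plasma cell surface marker CD138, had 11.55, 10.87 and 10.86 at day 10, against 10.29, 10.54 and 10.28 at day 7, with the groups apart and no call (0.72 ± 0.32, adjusted p = 0.195). Cxcr4, the receptor that holds plasma cells in bone marrow, had 12.27, 12.27 and 12.23 at day 10, against 11.09, 11.1 and 11.12 at day 7 (1.15 ± 0.23, adjusted p = 0.00381). Epcam rose by 1.72 ± 0.34 (adjusted p = 0.00368). The receptors for the survival factor APRIL fell, Tnfrsf17 (BCMA) by 1.36 ± 0.32 and Tnfrsf13b (TACI) by 0.75 ± 0.19 (adjusted p = 0.012 and 0.0228), and so did Slamf7, Eaf2 and Cd28, by 0.62 to 1.91. The folding helpers Txndc5 and Fkbp11 fell by 1.34 ± 0.28 and 1.48 ± 0.39 (adjusted p = 0.00637 and 0.024).

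Among endoplasmic reticulum genes the share called was near that of all genes or below it. Of 29 folding, export and degradation genes 1 was called higher, beside 3.51% of all genes, Herpud1 (degradation of misfolded proteins) by 0.87 ± 0.23 (adjusted p = 0.0226), and 0 lower, beside 4.69%, with a median difference of −0.15. At an unadjusted p below 0.05 the counts were 1 and 1, beside 2030 and 2290 of all 19497 genes, and voom on recovered reads called 1 and 0. Every day 10 level lay below every day 7 level in 7 of the 29, beside 12.6% of all genes, and above in 1, beside 11.4%. Txndc5 and Fkbp11, both called lower, were counted with plasma cell identity and not in this list. Between day 4 and day 7, 28 of the 29 had risen, against 17.7% of all genes. Hspa5, the chaperone BiP, had 16.41, 16.6 and 17.03 at day 10, against 16.9, 16.37 and 16.43 at day 7, and the groups overlapped. In the stress response run by ATF4 and CHOP, 4 of 22 genes were called higher and 1 lower, beside 3.51% and 4.69% of all genes: Chac1, Atf3, Slc3a2 and Cebpb rose by 1.12 to 2.22, and the serine synthesis enzyme Psat1 fell by 0.95 ± 0.14 (adjusted p = 0.000407). The 4 became 1 with only these 6 libraries or without day 7 replicate 3, and 2 without day 7 replicate 1 or day 10 replicate 2. Atf4 and Ddit3 (CHOP) themselves were not called, with −0.18 ± 0.14 and 0.54 ± 0.27 (adjusted p = 0.475 and 0.253). Atf3 was highest, at 9.87, in day 10 replicate 2, the library richest in macrophage transcripts, and its adjusted p with replicate 1 alone was 0.158. The part of those transcripts in it was not tested.

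The 15 largest falls held genes of B cell identity and lipid synthesis described with their groups. Parm1 headed them with 7.15, 7.0 and 7.58 at day 10, against 9.9, 10.08 and 10.09 at day 7 (−2.78 ± 0.22, adjusted p = 8.43e-07). Tigit, an inhibitory receptor, had 6.24, 5.79 and 6.57 at day 10, against 8.83, 8.82 and 9.01 at day 7 (−2.69 ± 0.21, adjusted p = 9.57e-07). Rassf6, Serpinb1a, Dnm3 and the condensin gene Ncapg fell by 2.05 to 2.56. Of the 15, 13 were called with only these 6 libraries fitted. Leaving out any single library kept 14 of the calls, and Cd28 lost its call without day 10 replicate 1 (adjusted p = 0.103).

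**Figure D2:**
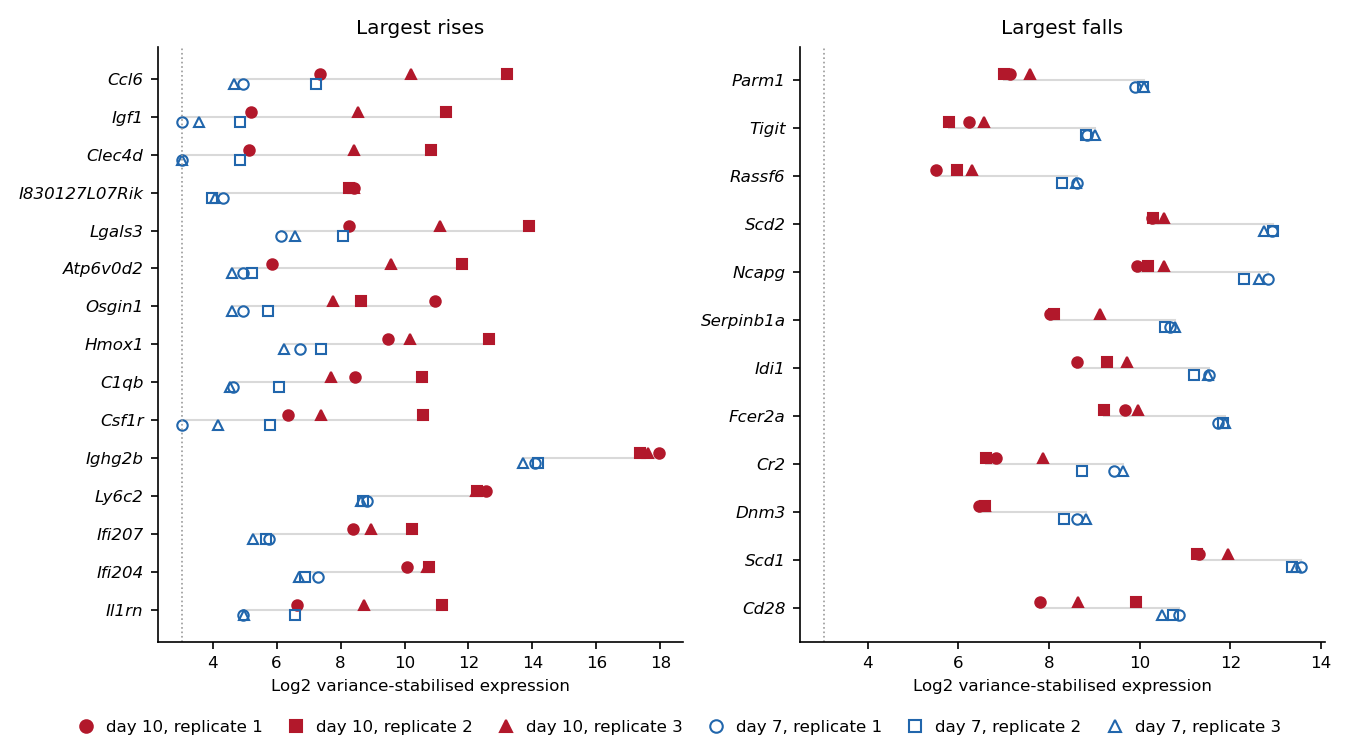
The 15 largest rises and 12 of the 15 largest falls at day 10 against day 7 by the naming rule. Each symbol is the log2 variance-stabilised level of 1 library, filled for day 10 and open for day 7, with the replicate shown by its shape and the level of no reads as a dotted line. Day 10 replicate 2 is the highest library for 11 of the 15 rises, with all day 10 levels above all day 7 levels in each row of the left panel and below them in the right panel.

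Genes of cholesterol synthesis and uptake fell as a group: 15 of 25 were called lower, beside 4.69% of all genes, and 0 higher, with a median difference of −1.01. Their factor SREBP2 is released from the endoplasmic reticulum when sterols are low and switches on the enzymes of the pathway. Hmgcs1, at the head of the pathway (chr13:119690379-119708260), had 9.49, 9.96 and 10.43 at day 10, against 11.64, 11.5 and 11.59 at day 7 (−1.62 ± 0.19, adjusted p = 6e-05). Insig1, which holds the SREBP2 precursor in the endoplasmic reticulum, had 11.35, 11.48 and 11.74 at day 10, against 13.1, 12.88 and 12.78 at day 7 (−1.4 ± 0.21, adjusted p = 0.000402). Idi1, which makes the isoprenoid building block, had 8.62, 9.29 and 9.73 at day 10, against 11.52, 11.2 and 11.51 at day 7 (−2.2 ± 0.28, adjusted p = 0.000132). In all 3, every day 10 library was below every day 7 library.

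Cyp51, Hsd17b7, Stard4, Sqle, Msmo1 and Sc5d fell by 1.06 to 1.62. Acat2, Lss, Fdft1 and Nsdhl fell by 0.51 to 1.01. Srebf2 itself, which encodes SREBP2, had 11.75, 10.77 and 10.92 at day 10, against 11.4, 12.0 and 11.66 at day 7 (−0.54 ± 0.33, adjusted p = 0.358), and Dhcr7 differed by −0.01 ± 0.25 (adjusted p = 0.998). Between 12 and 17 members were called lower under each of 17 other ways of fitting. Between day 4 and day 7, 16 of the 25 had fallen, against 18.6% of all genes. In the BCR culture 15 were lower at day 10 than at day 7, against 5.91% of all genes, with a median of −0.84.

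Both stearoyl-CoA desaturases named here fell, while the desaturase Fads2 rose. Scd2, a stearoyl-CoA desaturase (chr19:44293674-44306864), had 10.27, 10.29 and 10.53 at day 10, against 12.91, 12.95 and 12.74 at day 7 (−2.5 ± 0.14, adjusted p = 1.49e-08). Scd1, its neighbour (chr19:44394455-44407879), had 11.31, 11.27 and 11.96 at day 10, against 13.56, 13.36 and 13.44 at day 7 (−1.94 ± 0.22, adjusted p = 4.97e-05). Acsl3, Elovl6 and Acaca fell by 0.9 to 1.44, so that 5 of 16 fatty acid genes were called lower, beside 4.69% of all genes. The 1 called higher, beside 3.51% of all genes, was Fads2 (1.43 ± 0.43, adjusted p = 0.0474). Fasn overlapped, with 11.14, 9.45 and 9.34 at day 10, against 9.11, 10.63 and 9.97 at day 7.

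The promoters of sterol genes are shown because so many of them moved together. RefSeq windows from 250 bases before to 50 after each gene's start (GRCm38.p6) were searched on both strands, and a gene counted if any of its windows matched. The CCAAT box stood in 16 of 18 sterol genes with a window, or 88.9%, against 41.1% of all 27025 genes. Of the 10 sterol genes called lower that had a window, 9 held it, so it was about as common there as in all 18. The box also stood in 10 of 14 fatty acid genes (71.4%) and 12 of 18 DNA replication genes (66.7%). A sterol element of the form TCACNCCAC stood in 1 of the 18 sterol genes, or 5.56%, against 1.44% of all genes. The windows below are the 250 bases before the start of Hmgcs1 (chr13:119690101-119690350, plus strand) and Idi1 (chr13:8885356-8885605, plus strand), where capitals mark the box on either strand and, in Hmgcs1, the sterol element.
Hmgcs1: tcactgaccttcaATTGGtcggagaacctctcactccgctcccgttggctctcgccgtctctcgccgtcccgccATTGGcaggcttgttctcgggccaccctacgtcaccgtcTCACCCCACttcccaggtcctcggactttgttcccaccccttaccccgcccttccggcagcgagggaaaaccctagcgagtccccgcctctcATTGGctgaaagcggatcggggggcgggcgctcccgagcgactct
Idi1: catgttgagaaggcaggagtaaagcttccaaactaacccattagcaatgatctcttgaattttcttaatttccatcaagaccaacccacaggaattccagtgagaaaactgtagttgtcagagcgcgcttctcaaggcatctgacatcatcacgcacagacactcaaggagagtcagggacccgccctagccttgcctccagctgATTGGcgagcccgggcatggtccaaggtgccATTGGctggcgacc
A match is a description of letters and was not tested as a binding site.

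Proliferation genes fell. Of 24 mitosis and spindle genes 18 were called lower and 0 higher, beside 4.69% and 3.51% of all genes, with a median difference of −1.14. In 22 of the 24 every day 10 library was below every day 7 library, beside 12.6% of all genes. Ccna2, cyclin A2 (chr3:36564865-36572150), had 8.73, 10.03 and 9.53 at day 10, against 11.25, 10.91 and 11.13 at day 7 (−1.67 ± 0.27, adjusted p = 0.0009). Ccnb1, cyclin B1, had 8.55, 9.6 and 9.2 at day 10, against 10.69, 10.47 and 10.58 at day 7 (−1.46 ± 0.21, adjusted p = 0.000352). Kif11, the spindle motor, had 8.78, 9.77 and 9.68 at day 10, against 11.1, 10.72 and 11.08 at day 7 (−1.56 ± 0.27, adjusted p = 0.00174). Day 10 replicate 1 was the lowest library for all 3. Mki67, the proliferation marker Ki-67, had 12.57, 12.95 and 12.84 at day 10, against 13.59, 13.53 and 14.47 at day 7 (−1.08 ± 0.24, adjusted p = 0.00875). Between day 4 and day 7, 23 of the 24 had fallen, against 18.6% of all genes. With day 10 replicate 1 alone 18 were called lower, but 3 when only these 6 libraries were fitted.

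Of 24 DNA replication genes 6 were called lower and 0 higher, beside 4.69% and 3.51% of all genes, with a median of −0.48. Those called were the loading factor Cdc6, the helicase parts Cdc45 and Gins1, the polymerase Pole, the ribonucleotide reductase Rrm2 and the repressor E2f8. They fell by 0.86 to 1.41. With only these 6 libraries fitted 3 replication genes were called lower. Cdc6 had 7.19, 7.91 and 7.43 at day 10, against 8.79, 8.95 and 8.99 at day 7 (−1.4 ± 0.17, adjusted p = 6.64e-05). The clamp Pcna had 10.98, 12.0 and 11.78 at day 10, against 11.94, 11.32 and 11.71 at day 7, and the groups overlapped. At an unadjusted p below 0.05, 13 replication genes and 23 mitosis genes were lower, beside 2290 of all 19497 genes. Of 18 inhibitors and cyclins 1 was called higher and 1 lower, shares near the 3.51% and 4.69% of all genes. Btg2, which restrains proliferation, rose by 1.16 ± 0.25 (adjusted p = 0.00814) and Cdkn2c fell by 0.58 ± 0.16 (adjusted p = 0.0352). Cdkn2c was not called with only these 6 libraries fitted (adjusted p = 0.0966, limma). Cdkn1a and Cdkn1b, the inhibitors p21 and p27, were not called (0.61 ± 0.36 and −0.06 ± 0.25, adjusted p = 0.342 and 0.914).

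Promoters of genes that peak in mitosis often carry CCAAT boxes and a cell cycle homology region, through which the DREAM complex silences them in resting cells. The letters TTTGAA stood in 13 of 19 mitosis genes with a window, or 68.4%, against 20.2% of all genes with one, and CCAAT in 15 of 19, or 78.9%, against 41.1%. For DNA replication, 3 of 18 genes with a window (16.7%) held TTTGAA. The 250 bases before the start of Ccnb2 (chr9:70421555-70421804, minus strand) and Cdk1 (chr10:69352913-69353162, minus strand) carry both, shown 5′ to 3′ with both motifs in capitals on either strand.
Ccnb2: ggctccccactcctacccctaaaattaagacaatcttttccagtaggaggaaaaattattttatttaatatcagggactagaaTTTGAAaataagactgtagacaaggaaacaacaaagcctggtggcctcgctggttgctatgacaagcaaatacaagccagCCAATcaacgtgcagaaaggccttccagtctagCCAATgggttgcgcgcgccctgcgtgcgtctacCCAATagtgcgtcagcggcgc
Cdk1: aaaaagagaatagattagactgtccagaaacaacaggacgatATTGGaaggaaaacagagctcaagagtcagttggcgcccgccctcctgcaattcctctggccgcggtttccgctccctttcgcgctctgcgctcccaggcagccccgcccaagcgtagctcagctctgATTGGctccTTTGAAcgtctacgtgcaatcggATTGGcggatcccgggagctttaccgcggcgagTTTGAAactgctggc
Ccnb2, cyclin B2, fell by 1.34 ± 0.28 and Cdk1, its kinase partner, by 1.06 ± 0.18 (adjusted p = 0.00687 and 0.00157).

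**Figure D3:**
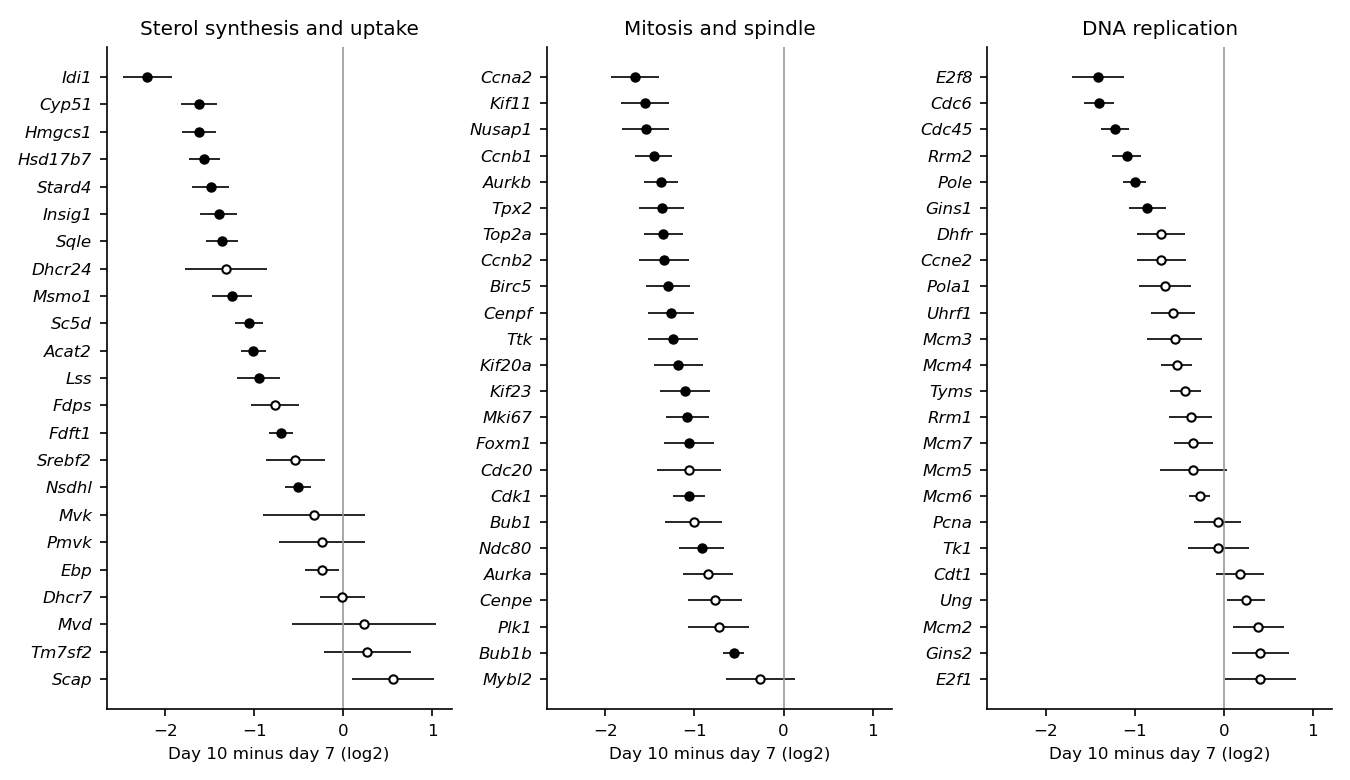
Members of the sterol, mitosis and DNA replication groups. Points give the day 10 minus day 7 difference (log2) of each gene shown with its standard error as a bar, filled where the gene was called. Filled points lie left of 0 for 13 of the 23 sterol genes shown, 18 mitosis and 6 replication genes, and none lies right of it.

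No gene of 4 lists for metabolism and survival was called in the main fit of 21 libraries. Of 20 MYC and ribosome genes, 15 glycolysis genes, 20 oxidative phosphorylation genes and 15 BCL2 family genes limma called 0 in either direction, beside 8.20% of all genes, with medians of 0.05, 0.21, 0.11 and 0.22. At an unadjusted p below 0.05 the counts were 1 higher and 2 lower, 0 and 0, 2 and 0, and 3 and 2 for these 4 lists, and voom on recovered reads called 0 in each. Over all 19497 genes the unadjusted counts were 2030 higher and 2290 lower. The GC and length correction called 1 MYC and ribosome gene higher and 1 lower. It also called 1 oxidative phosphorylation gene and 2 BCL2 family genes higher, and 0 glycolysis genes. Mcl1, a survival factor of plasma cells, had 14.1, 14.62 and 14.9 at day 10, against 14.91, 14.51 and 14.67 at day 7 (−0.16 ± 0.23, adjusted p = 0.732). Myc had 8.27, 7.83 and 8.01 at day 10, against 8.19, 8.74 and 8.51 at day 7 (−0.44 ± 0.2, adjusted p = 0.211).

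Receptors for position and cytokines changed in both directions. Of 20 homing genes 1 was called higher (Cxcr4) and 6 lower, beside 3.51% and 4.69% of all genes. Among those called lower, the factor Klf2 fell by 1.41 ± 0.25, the migration receptors Ccr6, Cxcr5 and Gpr183 by 1.04 to 1.37, and S1pr3 by 1.21 ± 0.25. Cxcr5 had 9.15, 8.56 and 9.25 at day 10, against 10.09, 10.29 and 10.45 at day 7. S1pr1, the receptor for egress, was not called (−0.19 ± 0.21, adjusted p = 0.642). In cytokine signalling 2 of 22 were called higher and 4 lower, beside the same shares of all genes (3.51% and 4.69%). Il6ra, the receptor of the IL-6 in the medium, had 10.37, 10.24 and 10.36 at day 10, against 9.21, 9.25 and 9.0 at day 7 (1.17 ± 0.15, adjusted p = 0.000132). Socs3, a feedback inhibitor downstream of that receptor, had 11.65, 10.85 and 10.64 at day 10, against 8.96, 9.52 and 8.85 at day 7 (1.94 ± 0.35, adjusted p = 0.00226). Both rose in every library, while Tigit, Il2ra, Il2rg and Pim2 fell.

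Among the 15 largest rises, 7 were called with day 10 replicate 1 alone, 10 kept their call whichever single library was left out, and 5 were called with only these 6 libraries fitted. Csf1r, Il1rn and Atp6v0d2 lost theirs without day 10 replicate 2 (adjusted p = 0.119, 0.112 and 0.0563), Ccl6 without day 7 replicate 3 (0.0707) and Lgals3 without day 7 replicate 1 (0.0691). The smallest adjusted p among the rises lay in the Ly6 cluster on chromosome 15. Ly6c2 (chr15:75108158-75111970), a surface protein of plasma cells in mice, had 12.55, 12.27 and 12.23 at day 10, against 8.82, 8.7 and 8.64 at day 7 (3.63 ± 0.25, adjusted p = 2.88e-07). I830127L07Rik, a transcribed pseudogene beside it (chr15:75131377-75135128), had 8.43, 8.26 and 8.41 at day 10, against 4.33, 3.97 and 4.06 at day 7 (4.25 ± 0.26, adjusted p = 4.79e-08). These are near-identical copies, and the counting could split reads between them. Ly6g (2.19 ± 0.36, adjusted p = 0.00117) and Ly6c1 (1.15 ± 0.32, adjusted p = 0.0348) also rose, whereas Ly6a fell by 1.03 ± 0.21.

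The interferon-inducible neighbours Ifi204 and Ifi207 on chromosome 1, likewise close copies, rose by 3.56 ± 0.26 and 3.63 ± 0.5 (adjusted p = 5.41e-07 and 0.000233). Osgin1, an oxidative stress gene, had 10.94, 8.64 and 7.77 at day 10, against 4.96, 5.74 and 4.6 at day 7 (4.02 ± 0.67, adjusted p = 0.00119), and was highest in replicate 1. The other rises, Ccl6, Igf1, Clec4d, Lgals3, Atp6v0d2, Hmox1, C1qb, Csf1r and Il1rn, were highest in replicate 2. Igf1 had 5.2, 11.29 and 8.55 at day 10, against 3.04, 4.86 and 3.56 at day 7 (4.53 ± 0.98, adjusted p = 0.00773), and its adjusted p with replicate 1 alone was 0.248.

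Macrophage markers were called higher in 15 of 24 cases and lower in 0, beside 3.51% and 4.69% of all genes, with a median difference of 2.68. The markers were Csf1r, Adgre1, Cd68, Lyz2, C1qa, C1qb, C1qc, Mrc1, Cd14, Fcgr1, Mertk, Cd163, Marco, Ccr2, Itgam, Cst3, Tyrobp, Fcer1g, Ccl6, Lgals3, Spp1, Gpnmb, Ms4a7 and Trem2. Their median level was 6.15, 10.54 and 7.87 in day 10 replicates 1, 2 and 3, against 4.88, 5.92 and 4.7 at day 7, and 1, 0 and 1 markers were at no reads at day 10, against 6, 0 and 2 at day 7. Lyz2, lysozyme, had 9.44, 14.92 and 12.08 at day 10, against 5.51, 9.52 and 5.96 at day 7 (5.15 ± 1.21, adjusted p = 0.0124). Csf1r, the receptor for macrophage colony-stimulating factor, had 6.36, 10.57 and 7.39 at day 10, against 3.04, 5.79 and 4.17 at day 7 (3.77 ± 0.98, adjusted p = 0.0231). Adgre1, the F4/80 antigen, had 8.82, 11.95 and 9.8 at day 10, against 8.05, 8.12 and 7.69 at day 7 (2.24 ± 0.64, adjusted p = 0.039). Day 10 replicate 2 was highest for all 3, and day 7 replicate 2 overlapped with day 10 replicate 1 for Lyz2. With replicate 1 alone 2 markers were called, Cst3 and C1qb (adjusted p = 0.0103 and 0.0414). With only these 6 libraries fitted 0 were called, and voom on recovered reads called 3. Leaving out day 7 replicate 1 or 3 or day 10 replicate 2 left 2 called. The summed share did not overlap between the times (exact permutation p = 0.1, the smallest possible). Cst3 had the highest level of the 24 markers in day 10 replicate 1 and in every day 7 library. It had 12.63, 12.01 and 11.86 at day 10, against 10.67, 11.24 and 10.85 at day 7, and thus was not highest in replicate 2. No sum was taken without Cst3, so the lack of overlap between the sums cannot be taken to hold for the other markers. Every day 10 level lay above every day 7 level in 12 of the 24 markers, beside 11.4% of all genes. In the BCR culture the sum was 15500, 17800 and 1580 CPM at day 10 and 511, 710 and 253 CPM at day 7.

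**Figure D4:**
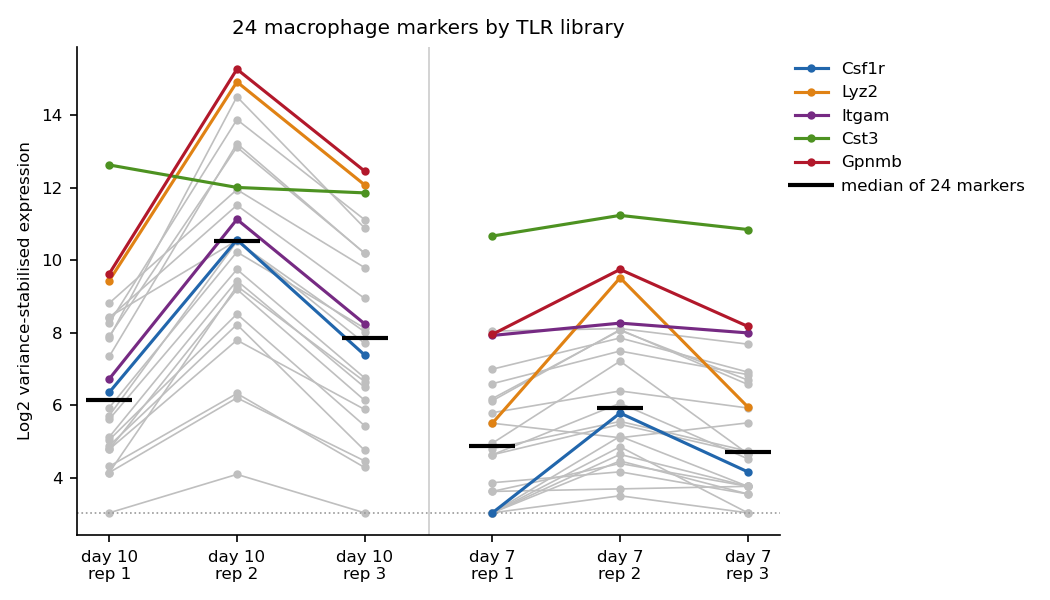
Macrophage markers in the TLR culture. Points show each of the 24 markers in each library as log2 variance-stabilised levels, day 10 on the left and day 7 on the right, with grey or coloured lines joining the values of 1 marker and a black bar at each library's median. The median level was 10.54 in day 10 replicate 2 and 6.15 in day 10 replicate 1, against 4.7 to 5.92 at day 7.

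Of 18 oxidative stress and iron genes 8 were called higher and 0 lower, beside 3.51% and 4.69% of all genes, with a median of 1.01. The 8 became 3 to 5 on leaving out any single day 7 library or day 10 replicate 2, and 0 were called with day 10 replicate 1 alone or with only these 6 libraries fitted. Hmox1, haem oxygenase, had 9.48, 12.64 and 10.18 at day 10, against 6.72, 7.4 and 6.23 at day 7 (3.98 ± 0.71, adjusted p = 0.00183). Gclc, Gclm, Txnrd1 and Nqo1, targets of the oxidative stress factor NRF2, rose by 0.67 to 1.09. Ctsb was the 1 of 24 lysosome genes called, a share near the 3.51% of all genes, with 13.89, 16.15 and 14.23 at day 10, against 12.74, 13.02 and 12.65 at day 7 (1.95 ± 0.54, adjusted p = 0.0321, and 0.277 with replicate 1 alone). Of 12 LXR targets and sterol efflux genes 3 were called higher and 1 lower, beside 3.51% and 4.69% of all genes. Plin2, Apoe and Cyp27a1 were higher, and Mylip was lower (−1.27 ± 0.27, adjusted p = 0.00765). With only these 6 libraries or without day 7 replicate 1, 1 was higher. Plin2, which coats lipid droplets, was 12.46 in replicate 2 and 8.76 in replicate 1, and its adjusted p with replicate 1 alone was 0.238. Cyp27a1 had 6.48, 6.44 and 6.27 at day 10, against 4.05, 4.47 and 4.6 at day 7, so that its day 10 levels lay close together. The part of macrophage transcripts in these groups was not tested.

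Markers of other blood cells and of the feeder cells were also measured. T and NK cell markers gave 0 calls of 12 and erythroid and platelet markers 0 of 10 by limma, beside 8.20% of all genes. Fibroblast markers, which the feeder cells would express, gave 0 of 10. At an unadjusted p below 0.05 the counts were 0, 1 higher with 1 lower, and 0 for these lists in turn, and voom called 0 in each. Over all 19497 genes the unadjusted counts were 2030 higher and 2290 lower. The GC and length correction called 1 erythroid and platelet marker higher and 1 fibroblast marker lower. Outside immunoglobulin, fibroblast markers summed to 109, 477 and 150 CPM at day 10, against 170, 213 and 198 CPM at day 7. Of 8 mast cell markers 2, Kit and Ms4a2, rose by 1.28 ± 0.24 and 0.85 ± 0.23 (adjusted p = 0.00258 and 0.0282), while Fcer1a and Prss34 were at no reads in all 6 libraries. Of 10 dendritic cell markers Siglech rose by 1.86 ± 0.24 and Flt3 fell by 1.29 ± 0.17 (adjusted p = 0.000135 and 0.000128). Neutrophil markers were called in 1 of 10 cases, Ly6g. On the same scale outside immunoglobulin, neutrophil markers summed to 6.68, 170 and 6.3 CPM at day 10, against 0.435, 7.49 and 0.418 CPM at day 7. Erythroid and platelet markers summed to 6.25, 122 and 7.36 CPM at day 10, against 1.67, 6.31 and 2.74 CPM at day 7, so replicate 2 was the highest library at both times for both lists.

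The step was compared with that of the BCR culture, in which 2101 genes were higher (10.8%) and 1152 lower (5.91%) at day 10 than at day 7. The 15 largest rises of the TLR culture were all called in the BCR culture and 13 of the 15 falls were called as falls there. Of the other two falls, Cd28 was called higher in the BCR culture and Serpinb1a was not called. The difference between the 2 steps was called for 13 genes, or 0.0667%, all lower in the TLR step. Several of the 13 were at no reads (3.04) in every day 10 TLR library, among them Tceal7, which was at 3.04 in every day 7 TLR library too. Scd2 fell more in the TLR culture, with −2.5 there, against −1.06 ± 0.14 in the BCR culture. Cd28, a costimulatory receptor that plasma cells carry, moved in opposite directions: 7.81, 9.92 and 8.65 at day 10, against 10.87, 10.74 and 10.49 at day 7 in the TLR culture, and 11.05, 10.59 and 8.75 at day 10, against 8.39, 7.96 and 7.74 at day 7 in the BCR culture. Ly6a fell by 1.03 in the TLR culture and rose by 1.13 ± 0.21 in the BCR culture. Fitting only the 12 day 10 and day 7 libraries of both cultures called 0 genes by limma (364 higher and 808 lower at an unadjusted p below 0.05). Leaving out day 10 BCR replicate 3 gave 1244 and leaving out day 10 TLR replicate 2 gave 114.

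**Figure D5:**
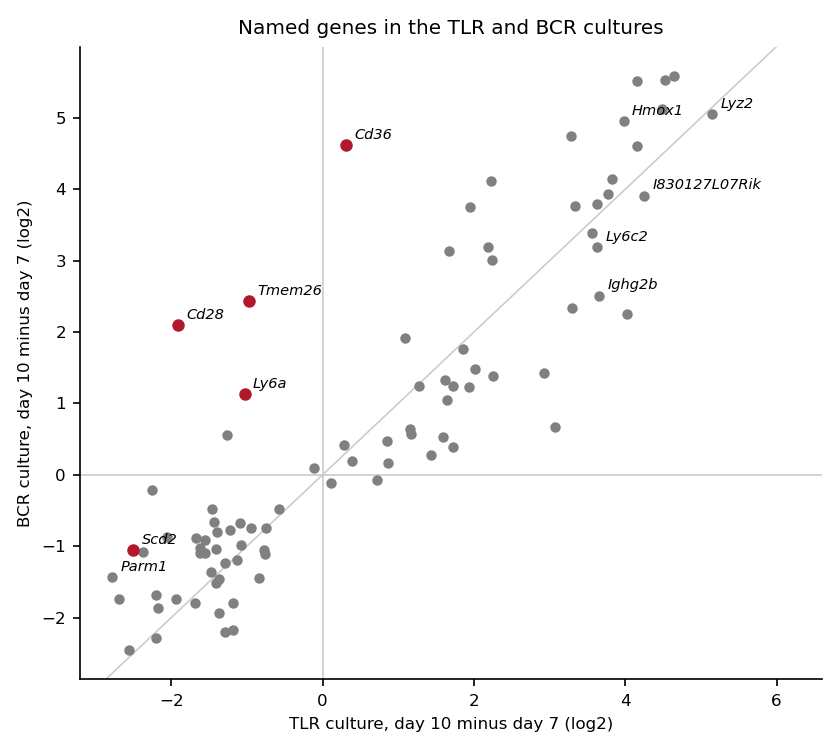
Day 10 minus day 7 in the TLR culture (horizontal axis) and in the BCR culture (vertical axis), log2, for 90 of the 95 named genes. The line marks equal steps, and Cd36, Cd28, Tmem26, Ly6a and Scd2, where the steps were called different, are in red.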

How the data were processed

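The values were the authors' deposited log2 variance-stabilised expression of RSEM gene estimates, 1 table of 21 wild type libraries. The submitters' processing notes name, without roles, STAR 2.6.0c and RSEM 1.3.0, DESeq2 1.22.2 in R 3.5.1, and Trim Galore 0.6.0 with FastQC 0.11.8. The labels describe stranded total RNA libraries. The value 3.04 was the lowest and stands for no reads, and inverting the transformation gave whole reads for 95.9 to 100% of values under 20 reads (within 0.1, where chance gives 20%); shares of normalised reads and depth come from it. Genes at 1 or more above that floor in at least 3 of 21 libraries were kept (19497). limma 3.58.1 in R 4.3.3 fitted 7 groups of 3 with a mean-variance trend and 14 residual degrees of freedom, two-sided, and adjusted over all kept genes by Benjamini-Hochberg. The fitting code was tested on simulated data, where the share of false calls exceeded the nominal one, most of them at levels below 8, and changes of small size were often missed. Alternatives were fitting only the groups compared, a GC and length correction, median centring, voom on recovered reads, other filters, robust moderation, the replicate block and leaving out each library. Day 10 replicate 1 alone was added after seeing the data. Named genes were the 15 largest called rises and falls with no overlap between groups and a mean of at least 8, up to 4 members of each list, 15 fixed genes and 5 differing most between cultures in each direction. Some genes are not reported here by name, and counts over lists include them. The members and the gene lists were chosen with earlier results of these data known. Intervals for shares are not given because the recovered reads are estimates. RefSeq promoter windows are of GRCm38.p6.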

Additional observations from a re-analysis of the deposited data

Results flagged for a closer look

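The step from day 7 to day 10 differed between the TLR and BCR cultures, by the test of the difference itself, for 5 named genes. Cd36, a fatty acid and lipoprotein receptor, differed by −4.31 ± 0.78 (adjusted p = 0.0493, limma), with 10.95, 13.13 and 12.15 at day 10, against 12.15, 11.4 and 11.75 at day 7 in the TLR culture, and 14.61, 15.12 and 12.69 at day 10, against 10.17, 9.63 and 8.77 at day 7 in the BCR culture. Without day 10 TLR replicate 2 the TLR step of Cd36 was −0.22 and with day 10 replicate 1 alone −0.82. Cd28 differed by −4.01 ± 0.7 (adjusted p = 0.038) and Tmem26 by −3.41 ± 0.59 (adjusted p = 0.038). Ly6a differed by −2.15 ± 0.29 and Scd2 by −1.44 ± 0.19 (adjusted p = 0.00447 for both). Day 10 BCR macrophage markers summed to 15500, 17800 and 1580 CPM, so that replicate 3 stood apart there, and their part in these differences was not tested.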

How the results depend on the processing

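Day 10 against day 7 was called higher for 685 and lower for 914 genes, 1599 in all. Fitting only the 6 libraries gave 316, 290 and 606; leaving the day 10 BCR libraries out of the fit gave 1190 higher and 2491 in all; the GC and length correction gave 1332, 1433 and 2765, and with the replicate block 1415, 1428 and 2843. Centring each library on its median moved the median difference to −0.12 and gave 418 higher, or 31% of calls against 42.8%. voom on recovered reads gave 449, 608 and 1057. Leaving out 1 library gave 312 to 724 higher, 485 to 952 lower and 797 to 1527 in all, and day 10 replicate 1 alone gave 312 higher and 1001 in all. The replicate block gave 752 and 913. Same-numbered TLR libraries of day 10 and day 7 deviated together in 1 of 3 pairs (r = −0.594, −0.061 and 0.231). Same-numbered TLR and BCR libraries did in 3 of 3 pairs at day 10 (0.32, 0.521 and 0.454) and 2 of 3 at day 7 (0.779, 0.501 and −0.106). Such deviations also carry library differences like base composition, so they cannot tell whether same-numbered libraries share an animal or culture. The culture difference, 13 genes, was 15 with the replicate block, 0 with only the groups compared, 48 with the GC correction, and 5 to 1244 leaving out 1 library. The macrophage difference of 1300 CPM was 3300 outside immunoglobulin and 232 to 1910 leaving out 1 library. Signs turned for Irf4 when centred (−0.02), for Jchain with the GC correction (0.05, also with the block), without day 7 replicate 1 (0.07) or day 10 replicate 1 (0.08; range leaving out 1 library −0.33 to 0.08), and for Cd36 as given above (−0.22 and −0.82; range leaving out 1 library −0.22 to 0.87); the cause was not tested. Of 88 called named genes 45 kept their call with only the 6 libraries and 71 with voom, and 0 turned sign in any of 17 settings. Depth limits low genes most at day 10.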

Other observations

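Genes that rose or fell most plainly were not ordered alike in the day 10 libraries. Of 325 called genes with no overlap and a mean of at least 8 that rose, 158 were highest in replicate 1, 72 in replicate 2 and 95 in replicate 3, and of 507 such genes that fell, 306 were lowest in replicate 1, 159 in replicate 2 and 42 in replicate 3. The median range over the 3 libraries was 0.45 for the risers and 0.54 for the fallers, and it was over 2 in 17 risers and 1 faller. Neutrophil and platelet transcripts stood out in replicate 2: S100a8 had 3.04, 9.46 and 4.29 at day 10, against 3.04, 5.72 and 3.04 at day 7, Ngp had 3.04, 9.52 and 3.78 at day 10, against 3.04, 5.33 and 3.04 at day 7, and Pf4 had 5.81, 10.88 and 7.07 at day 10, against 3.63, 5.79 and 3.77 at day 7. None of these was called (adjusted p = 0.684, 0.687 and 0.0723).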
